A study of Homo sapiens with 124 samples.

Results

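Chromosome 3 was followed along both arms for its contacts with the nuclear lamina in single human cells. Its members are the 100 kb bins of build hg19 on chromosome 3 for which every cell has a number and at least 1 cell a value above 0, and they numbered 1949 of the 26426 such bins in the genome-wide table. Of the 1981 bins of chromosome 3 in the table, 30 had no numbers and 2 were at 0 in every cell. The 1949 bins cover 194.9 Mb. The longest stretch without numbers, from 90600001 to 93500000, lies at the centromere and split them into a long arm of 1043 bins (104.3 Mb) and a short arm of 906 bins (90.6 Mb).

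The study mapped LaminB1 contacts by DamID in 124 single cells, which form 1 group, and 118 of them were analysed here. All were KBM7 cells, a near-haploid line from a chronic myeloid leukaemia, of 1 clone (clone 14), labelled haploid (1N) and carrying Dam fused to LaminB1. Dam was induced with 0.5 nM Shield1, a small molecule that stabilises fusion proteins with a destabilising domain, for 15 h. Single cells were then sorted from the smallest 2% of those positive for both Fucci markers, fluorescent reporters of cell cycle stage, and their DpnI fragments were amplified with 21 extension steps. A line that is 1 clone carries only its own rearrangements and history. Profiles of unfused Dam, which show how accessible each region is, were not used here, and no expression was measured with which to check the cell type. The labels do not name the cultures that the cells came from, so no test was made: SDs below give the spread between cells, n = 118 unless stated.

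The nuclear lamina is a mesh of lamin proteins under the inner nuclear membrane. Large stretches of chromatin that touch it, lamina-associated domains, are known to be poor in genes, mostly silent and often megabases long, while gene-dense active chromatin tends to lie away from it. In DamID the bacterial methyltransferase Dam, tethered to a lamina protein, methylates adenine in GATC motifs nearby, and DpnI cuts only the methylated motifs, so that the sequenced fragments record where the lamina was touched during the hours of induction.

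A bin was counted as in contact in a cell when its deposited ratio of observed to expected reads was 1 or more. Contact frequency is given per bin, as the percentage of the 118 cells with a contact there, and contact share per cell, as the percentage of bins in contact. As an illustration of the motif that the assay reads, the 250 bases before the start of 4 genes of chromosome 3 are printed here 5′ to 3′ on the gene's own strand, with each GATC in capitals. The motif reads the same on both strands. NAALADL2 and ZNF385D are known to lie in the longest stretches of frequent contact of the long and of the short arm, and EIF4G1, a translation initiation factor, and TFRC, the transferrin receptor, in long stretches of the long arm with almost no contact, of which that with TFRC reaches the chromosome end. The sequences are from RefSeq, build GRCh38.p14.
NAALADL2: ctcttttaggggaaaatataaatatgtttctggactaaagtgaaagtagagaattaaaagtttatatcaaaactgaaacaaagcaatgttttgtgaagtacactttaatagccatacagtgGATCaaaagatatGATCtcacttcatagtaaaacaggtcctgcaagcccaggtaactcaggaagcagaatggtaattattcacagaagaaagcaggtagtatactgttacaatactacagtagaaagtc
ZNF385D: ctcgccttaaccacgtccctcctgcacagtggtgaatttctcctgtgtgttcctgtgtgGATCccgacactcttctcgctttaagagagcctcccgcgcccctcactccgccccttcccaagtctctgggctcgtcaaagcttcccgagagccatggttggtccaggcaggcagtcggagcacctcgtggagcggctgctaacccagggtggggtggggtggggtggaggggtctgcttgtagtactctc
EIF4G1: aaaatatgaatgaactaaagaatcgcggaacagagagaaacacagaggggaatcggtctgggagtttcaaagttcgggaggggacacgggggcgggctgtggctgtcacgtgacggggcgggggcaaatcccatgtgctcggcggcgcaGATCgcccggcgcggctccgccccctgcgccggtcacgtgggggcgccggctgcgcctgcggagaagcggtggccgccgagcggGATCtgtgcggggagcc
TFRC: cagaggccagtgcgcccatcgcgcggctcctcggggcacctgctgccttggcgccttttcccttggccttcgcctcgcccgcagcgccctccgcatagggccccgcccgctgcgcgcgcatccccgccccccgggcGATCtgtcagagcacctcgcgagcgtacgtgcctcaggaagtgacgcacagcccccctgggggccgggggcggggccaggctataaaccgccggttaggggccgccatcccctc
NAALADL2 (plus strand) and EIF4G1 (plus strand) hold 2 GATC motifs each, and ZNF385D and TFRC (both minus strand) hold 1 each. The G and C content was 33.6% for NAALADL2, 61.6% for ZNF385D, 67.2% for EIF4G1 and 74.4% for TFRC. Among 2153 promoters of chromosome 3 in the RefSeq table, 34.9% hold at least 1 GATC in these 250 bases, against 35.8% of 35116 promoters in the whole table. These 4 were chosen with the contact values known, and no value below belongs to a promoter or a single gene, because bins of 100 kb were measured.

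Whole reads could be recovered from the ratios, and chromosome 3 held 1746 reads in cell 49, 11518.5 in the median cell and 31577 in cell 101. Over all bins the cells had 28372 to 385661 reads, with a median of 135782, and a ratio of 1 in the median bin was worth 1.17 reads (shallowest cell), 5.63 reads (median cell) or 15.9 reads (deepest cell). It was worth under 3 reads in 14 cells, where 1 read more or less can change a contact. Cells numbered 96 to 124 (n = 28) stood apart from cells numbered 1 to 94 (n = 90): 24.1% of chromosome 3 bins had no read in a cell, against 46.3%. The labels do not say whether these sets of numbers were handled separately, so many results that differ between them are given for each. Others are given over all cells only and may differ between the sets as well. No columns were identical, and the Jaccard index of 2 cells on chromosome 3 (bins in contact in both over bins in contact in either) had a median of 0.551 over 6903 pairs, from 0.199 for cells 45 and 58 to 0.785 for cells 27 and 91.

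Chromosome 3 had 37.3% ± 7.14 of its bins in contact per cell, from 18.4% in cell 90 over a median of 37.4% to 50.7% in cell 24. The other sequences of the table had 32.6% ± 5.48, and chromosome 3 was higher in 99 of 118 cells, by 4.66 percentage points ± 4.91, a mean within the spread between cells. It ranked eighth of 22 sequences by contact share and sixth by the percentage of bins in contact in 80% or more of the cells. Among autosomes of like length, chromosome 4 was higher, at 46.2%: chromosome 3 minus chromosome 4 was −8.92 points ± 7.48 and above 0 in 13 of 118 cells. Chromosome 3 minus chromosome 5, which had 38.4%, was −1.05 points ± 7.96 and above 0 in 46 cells, which is within the spread between cells. The share of chromosome 3 went with that of the other sequences over cells (Pearson's r = 0.727), and with the number of reads (r = 0.618), while the difference between chromosome 3 and the other sequences had r = −0.0188 with reads; these are descriptions over 118 cells that share the assay and differ in depth. Cells 96 to 124 had 40.4% of chromosome 3 in contact, against 36.3% in cells 1 to 94.

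**Figure D1:**
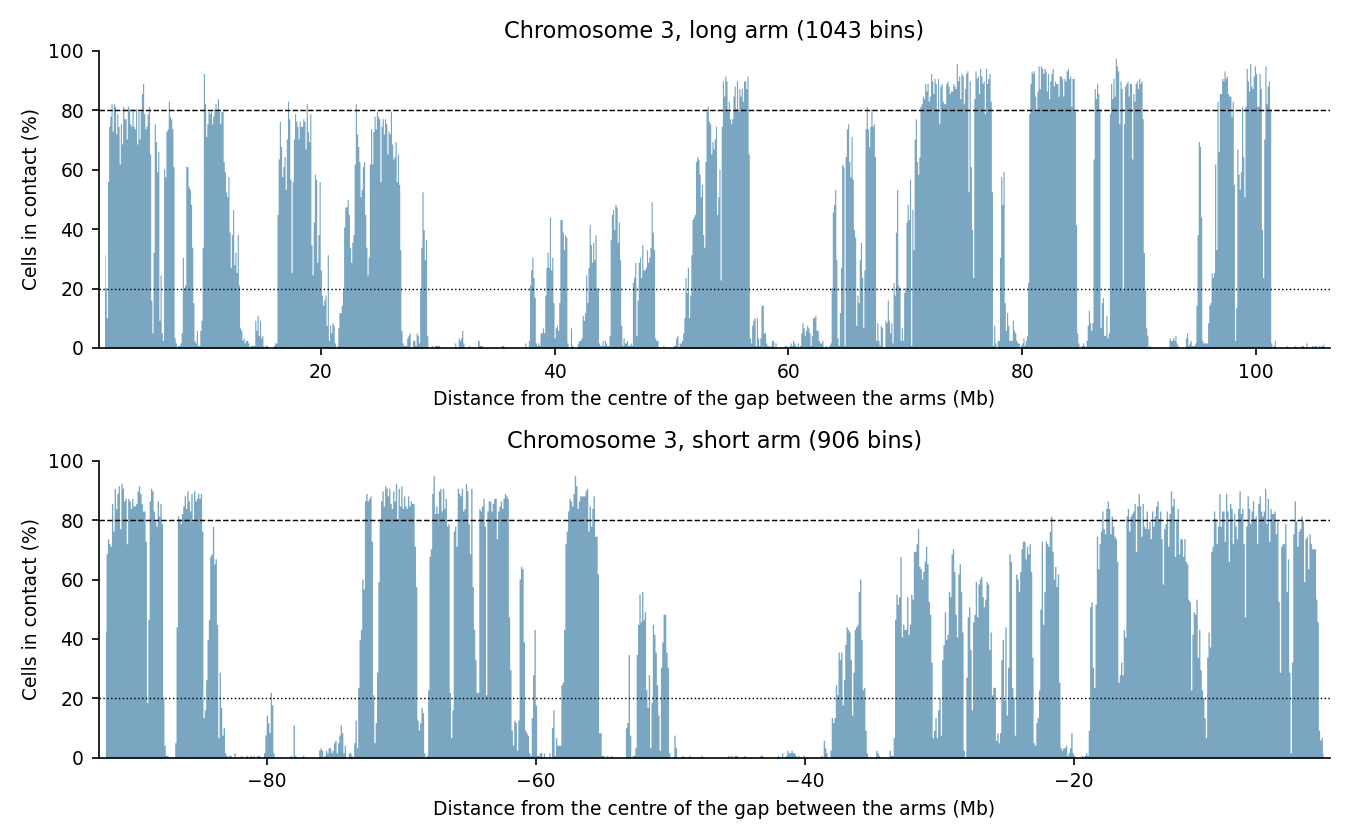
Contact frequency of each 100 kb bin (percent of 118 cells, vertical axis) by its distance from the centre of the gap between the arms in Mb (horizontal axis), with the long arm above and the short arm below. Dashed lines mark 80% and dotted lines 20%: blocks above 80% alternate with stretches near 0, the short arm is high at its outer end and the long arm is near 0 over its last 4.6 Mb.

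Along the chromosome, frequent and rare bins fell into blocks. On chromosome 3, 387 bins (19.9%) were in contact in 80% or more of the cells, against 15.1% of all bins in the table, and 362 bins (18.6%) were in contact in none, against 22.3%. A further 667 bins (34.2%, against 33.9% of all bins) were at 20 to under 80%, and 533 bins (27.3%, against 28.8%) above 0 and under 20%. The 387 frequent bins held 46.3% of all contacts of the chromosome and the 667 intermediate bins 50.0%. Among cells in contact the median ratio was 2.52 in bins at 80% or more, 1.96 in bins at 20 to under 80% and 1.44 in bins above 0 and under 20%. The last value rests on the 231 of 533 bins that were in contact in at least 5 cells, while all bins of both more frequent classes entered. The reads that stand for a ratio of 1 in the median cell hardly differed between these classes, from 5.63 to 5.67. Cells 96 to 124 had 85.4% in bins at 80% or more, against 87.4% in cells 1 to 94, but 61.1% against 52.4% in bins at 20 to under 80% and 9.36% against 3.85% in bins above 0 and under 20%; these classes were set on all cells, of which 90 were numbered 1 to 94. A bin at 0 of 118 cells is compatible with at most 2.54% of cells if 3 counts are taken as the floor, and with at most 3.08% by the exact Clopper-Pearson 95% interval.

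The long arm had a smaller part of its bins in contact than the short arm. The long arm had 35.4% ± 7.39, from 13.5% in cell 90 over a median of 36.1% to 48.9% in cell 24, and the short arm 39.5% ± 8.78, from 17.4% in cell 69 over a median of 39.6% to 57.2% in cell 113. The ranges overlap, and within cells the long arm minus the short arm was −4.13 points ± 7.52, with the long arm higher in 33 cells and the short arm higher in 85. The difference was −6.01 points in cells 96 to 124, against −3.55 points in cells 1 to 94. Its mean is smaller than its spread between cells, and it was −1.91 points ± 6.76 with a contact value of at least 2. Bins at 80% or more made up 18.4% of the long arm and 21.5% of the short arm, and bins at 0% made up 16.7% and 20.8%. The arms differed more in the bins above 0 and under 20%, which made up 32.1% of the long arm and 21.9% of the short arm.

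Consecutive bins at 80% or more formed 88 frequent stretches, of which 9 reached at least 1 Mb, 5 on the long arm and 4 on the short arm, 16.1 Mb in all. This count depends on the settings: it was 2 with cells thinned to 50000 reads, 0 with a contact value of at least 2 or a limit of 90%, 23 with a contact value of at least 0.5 and 24 in bins of 200 kb. Over cells 96 to 124 alone it was 6 and over cells 1 to 94 alone 10. The longest, from 173300001 to 176500000 on the long arm (3.2 Mb), had a mean contact frequency of 90.3% ± 14.7. It is known to hold NAALADL2, a large peptidase-like gene, and most of NLGN1, which encodes a synaptic adhesion protein. The mean ratio of this stretch was 0.713 in the lowest cell, 2.56 in the median cell and 8.94 in the highest. No cell lacked contact there, 114 cells had over 50% of it in contact and 44 had all of it.

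On the same arm the stretch from 165000001 to 167400000 (2.4 Mb), the place of BCHE, a serum cholinesterase, had 88.1% ± 16.4, with a mean ratio of 0.655 in the lowest cell, 2.51 in the median and 10.3 in the highest. Over 50% of it was in contact in 113 cells. Its neighbour from 163300001 to 164900000 (1.6 Mb), the place of the intestinal sucrase SI, had 86.4% ± 19.3, and differed between the sets of cell numbers, with 72.5% in cells 96 to 124, against 90.8% in cells 1 to 94, where the cause was not tested. The other long arm stretches were from 191100001 to 192500000 (1.4 Mb), the place of the fibroblast growth factor homologue FGF12, with 88.9% ± 17.8, and from 188900001 to 189900000 (1.0 Mb), the place of TP63, an epithelial transcription factor of the p53 family, with 88.2% ± 23.6.

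On the short arm the longest frequent stretch, from 20400001 to 23000000 (2.6 Mb), had 86.9% ± 21.2, with a mean ratio of 0.160 in the lowest cell, 2.45 in the median and 5.95 in the highest. It holds ZNF385D, a zinc finger gene. In 1 cell it had no contact, in 9 cells up to 50% of it was in contact, in 108 cells over 50% and in 45 cells all of it. The stretch from 34400001 to 35900000 (1.5 Mb), the place of the neuronal phosphoprotein gene ARPP21, had 88.0% ± 19.4. The stretch from 1700001 to 3000000 (1.3 Mb), most of which CNTN4, a neural adhesion gene, covers, had 86.3% ± 23.7 and was without contact in 2 cells. The stretch from 24300001 to 25400000 (1.1 Mb) had 87.1% ± 21.2. Among the 9 stretches none had a cell-to-cell SD under 14.7 points, and the number of cells with the whole stretch in contact ran from 41 to 76.

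Single bins reached higher values than any stretch mean. The bin from 180000001 to 180100000 on the long arm was in contact in 115 of 118 cells, 97.5% with an exact Clopper-Pearson 95% interval of 92.7 to 99.5%, which covers the counting of cells only. Bins 166400001 to 166500000 and 191500001 to 191600000, also on the long arm, were in contact in 113 cells (95.8%). The highest on the short arm were 24400001 to 24500000 and 34900001 to 35000000, in 112 cells each (94.9%). The intervals of these bins overlap, but the bins share the same cells and were picked for their high counts. Their order was not tested.

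The 9 stretches were chosen because each of their bins was in contact in at least 80% of these cells, which favours high counts of cells, so the following counts are a description. Of 118 cells, 80 had over 50% of each of the 9 stretches in contact, 21 had this for 8 stretches and 9 for 7. Another 2 cells had it for 6, 4 cells for 5, 1 cell for 4 and 1 cell for 3. The 80 cells with all 9 had a median of 148738 reads and the cell with 3 had 38475 reads. The part of depth in these counts was not tested.

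**Figure D2:**
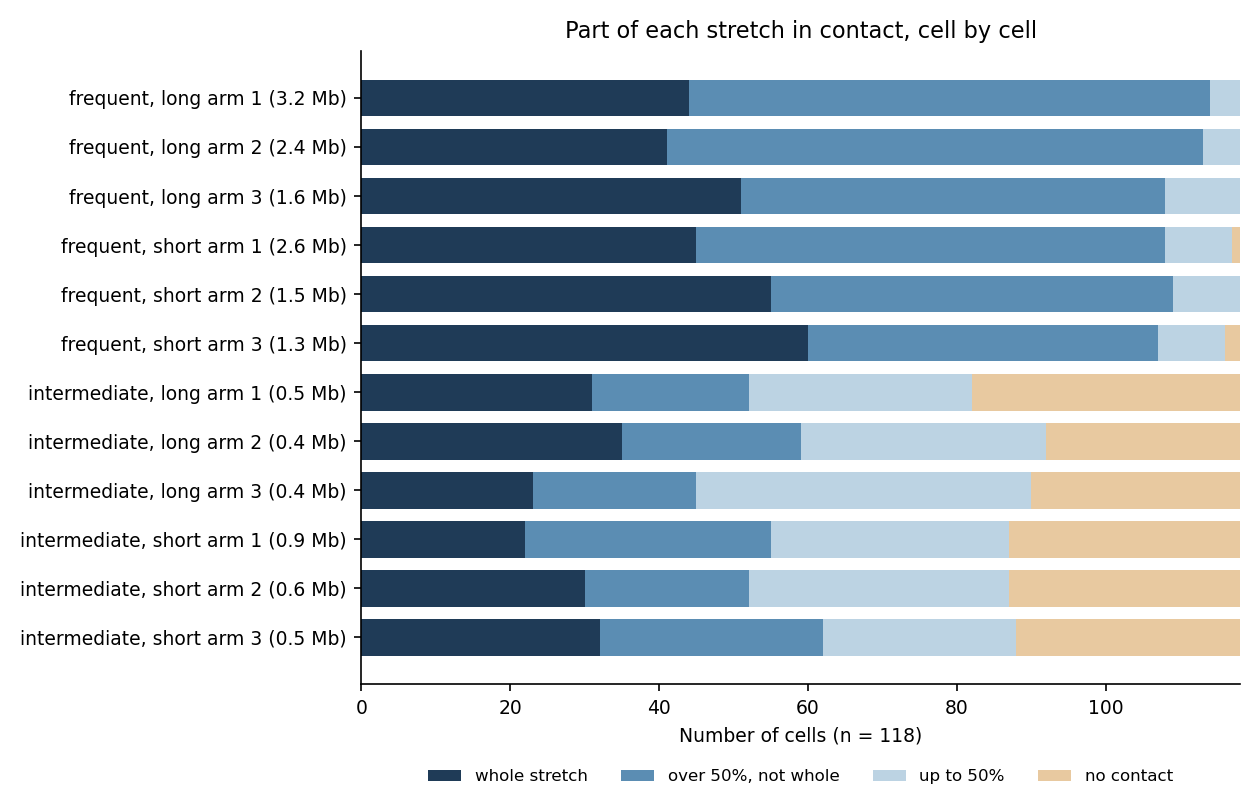
Number of cells (horizontal axis, n = 118) in which all of a stretch, over 50% of it, up to 50% of it or none of it was in contact, for the 3 longest frequent and the 3 longest intermediate stretches of each arm, long arm first. In the frequent stretches 107 to 114 cells had over 50% in contact and in the intermediate ones 26 to 36 cells had no contact, a contrast that the choice of stretches by frequency largely sets.

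In intermediate stretches, contacts were divided among cells. Bins at 40 to under 60% formed 92 stretches, none of them as long as 1 Mb, and cells had all, part or none of such a stretch in contact. That more cells lacked contact than in the frequent stretches is largely set by choosing the stretches on their frequency in the same cells, and the intermediate stretches named here hold 4 to 9 bins, against 13 to 32 in the 3 longest frequent ones of each arm, so all or none is reached more easily. On the long arm the stretch from 114000001 to 114500000 (0.5 Mb), which reaches into ZBTB20, a zinc finger repressor gene, had 46.1% ± 41.0: 36 cells had no contact and 31 had all of it. The stretch from 103800001 to 104200000 (0.4 Mb) had 55.1% ± 38.8, with 26 cells without and 35 cells with all of it, and that from 162100001 to 162500000 (0.4 Mb) had 47.7% ± 36.4, with 28 and 23. On the short arm the stretch from 59200001 to 60100000 (0.9 Mb), which reaches into the fragile tumour suppressor gene FHIT, had 46.8% ± 38.5, and 31 cells had none and 22 cells all of it in contact. The stretches from 39600001 to 40200000 and from 64500001 to 65000000 had 49.6% ± 40.2 and 51.9% ± 39.7. Several of these depended on the set of cell numbers: 72.9% in cells 96 to 124 against 37.8% in cells 1 to 94 at 114000001, 65.5% against 41.0% at 59200001 and 75.7% against 44.4% at 64500001. At 162100001 the sets had 47.3% and 47.8%.

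Bins at 5% or less made up 687 bins of chromosome 3 (35.2%, against 38.8% of all bins) and formed 79 rare stretches. Of these 20 were at least 1 Mb long, 12 on the long arm and 8 on the short arm, 52.1 Mb in all. On the long arm the stretch from 193300001 to the last bin, ending at 197900000 (4.6 Mb), averaged 0.368% of cells, and 104 of 118 cells were without contact in it. It is known to hold TFRC, which takes up iron, and the mucin gene MUC4. The stretch from 125500001 to 129900000 (4.4 Mb), which holds GATA2, a transcription factor of blood stem and progenitor cells, and its neighbour RPN1, had 0.250% and was without contact in 107 cells. The stretch from 182700001 to 186100000 (3.4 Mb), the place of EIF4G1, had 0.872% and was without contact in 104 cells.

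The longest rare stretch of the chromosome lies on the short arm, 11 Mb from 42400001 to 53400000, with 0.277%. It is a gene-dense region that holds among others RHOA, a small GTPase of the cytoskeleton, SETD2, a histone methyltransferase, and BAP1, a deubiquitinase. In the median cell its mean ratio was 0.0140 and in the highest cell 0.240, and 101 cells had no contact in any of it. Of the cells numbered 96 to 124, 18 of 28 had no contact there, against 83 of 90 numbered 1 to 94. The stretch from 8900001 to 11900000 (3.0 Mb), the place of VHL, which marks hypoxia-inducible factors for degradation, had 0.424%, and that from 14100001 to 17000000 (2.9 Mb) 0.906%. Bins without contact in any cell formed 91 stretches, the longest from 44400001 to 46300000 (1.9 Mb) on the short arm and from 127700001 to 129500000 (1.8 Mb) on the long arm.

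The change between the kinds of stretch was often abrupt. Where the mean frequency of the 3 bins before and after a position differed by at least 50 points, 35 borders were counted, 20 on the long arm and 15 on the short arm, with a median step of 65.5 points. The largest stands at 193300000 on the long arm, with a mean of 86.2% over the 3 bins before it and 0.847% over those after it, a step of 85.3 points. Steps of 77.4 points stand at 172600000, before the stretch with NLGN1 and NAALADL2, and at 179500000. The largest of the short arm, at 4300000, was 73.4 points.

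With a lower limit of 50%, stretches joined across weaker bins, and 30 of 71 reached 1 Mb, 14 on the long arm and 16 on the short arm. On the long arm the longest were from 162800001 to 167700000 (4.9 Mb) with 83.9%, from 172600001 to 176600000 (4.0 Mb) with 89.5% and from 93800001 to 97500000 (3.7 Mb), next to the centromere and the place of the ephrin receptor gene EPHA6, with 76.0%. On the short arm they were from 75900001 to 80700000 (4.8 Mb), the place of the axon guidance receptor genes ROBO1 and ROBO2, with 77.5%, and from 100001 to 3100000 (3.0 Mb), the place of the neural adhesion genes CHL1, CNTN6 and CNTN4, with 83.4%. The stretch with ROBO1 and ROBO2 had 68.0% in cells 96 to 124, against 80.5% in cells 1 to 94.

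**Figure D3:**
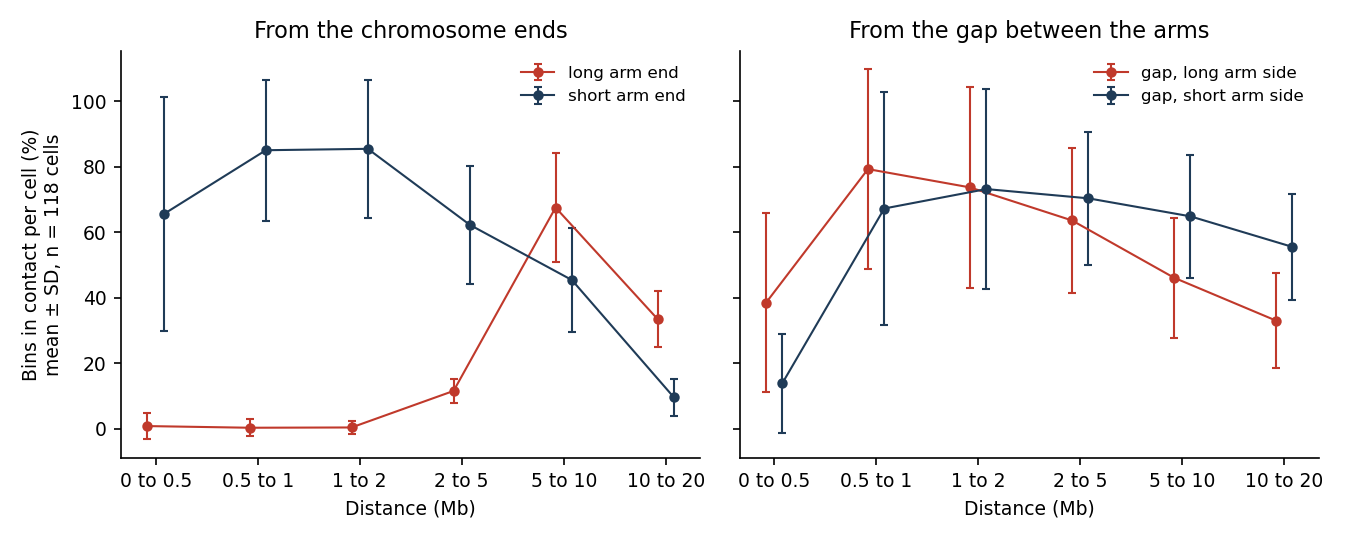
Mean percentage of bins in contact per cell, with SD over 118 cells, by distance in Mb from the 2 chromosome ends (left) and from the 2 sides of the gap between the arms (right), where red is the long arm and blue the short arm. The first 2 Mb are at 80.4% at the short arm end and at 0.508% at the long arm end.

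The 2 ends of chromosome 3 were opposite. Within 2 Mb of the end, the long arm had 0.508% ± 1.78 of its bins in contact, from 0% in 108 cells to 10% at most, and the short arm had 80.4% ± 20.0, from 10% in cell 58 over a median of 85% to 100%. The long arm end minus the short arm end was −79.9 points ± 20.1 and below 0 in 118 of 118 cells. Bins at least 10 Mb from both ends had 36.1% ± 7.23, so the ends lay on either side of the interior. Among the 17 sequences split into arms, the end of the short arm of chromosome 3 had the highest value, followed by chromosome 18 with 43.3%, 9:22, a derivative sequence of chromosomes 9 and 22, with 39.4%, and chromosome X with 34.7%. Its long arm end ranked only 10 of these 17 from the highest. Other sequences also had unlike ends. At their long arm ends chromosome 18 had 4.15%, 9:22 0.805% and X 1.02%. Chromosome 1 had 0.212% at the short and 45.8% at the long arm end, and chromosome 4 had 0.636% and 43.2%. From the long arm end inward the means were 0.847% at 0 to 0.5 Mb, 0.339% at 0.5 to 1 Mb, 0.424% at 1 to 2 Mb, 11.6% at 2 to 5 Mb and 67.6% at 5 to 10 Mb, where the stretches with FGF12 and TP63 lie. From the short arm end inward they were 65.6%, 85.1%, 85.5%, 62.3% and 45.4% over the same distances, and 9.60% at 10 to 20 Mb. The outermost bin of the short arm was at 42.4%, but in the median cell a ratio of 1 stood for 0.481 reads there, so a single read made a contact.

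Both sides of the gap at the centromere had a higher mean than bins at least 10 Mb away on their arm. Within 2 Mb of the gap the long arm side had 66.3% ± 25.7 and the short arm side 56.9% ± 24.3, and each was without contact in 5 cells. At 2 to 5 Mb the long arm had 63.6% and the short arm 70.4%, and at 5 to 10 Mb they had 46.2% and 64.9%. On the short arm the bins within 2 Mb were thus lower than those at 2 to 10 Mb. On the long arm, bins at least 10 Mb away had 33.3%, and the near bins were higher by 33.1 points ± 24.5, in 104 of 118 cells. On the short arm, bins at least 10 Mb away had 36.4%, and the near bins were higher by 20.6 points ± 24.3, in 93 cells, which is less than the spread between cells. In cells 96 to 124 the near bins of the short arm had 41.6% and differed from the far bins by −0.758 points, whereas in cells 1 to 94 they had 61.7% and differed by 27.2 points; so on the short arm the excess was seen in cells 1 to 94 and not in the mean of cells 96 to 124. The long arm side had 61.8% and 67.7% in these sets. Within cells the long arm side minus the short arm side was 9.41 points ± 28.8, higher on the long arm side in 78 cells, lower in 32 and equal in 8. With only bins in which a ratio of 1 stood for at least 3 reads in the median cell, this difference was not seen. The long arm side then had 68.8% and the short arm side 69.4%. With all bins, after the share of the other sequences was removed by regression, the 2 sides had r = 0.336 over all cells, 0.317 over cells 96 to 124 and 0.348 over cells 1 to 94. The innermost 0.5 Mb were lower, at 38.5% on the long arm side and 13.9% on the short arm side. In the bins beside the gap a ratio of 1 stood for few reads in the median cell. It was worth 1.60 reads on the long arm and 0.0713 on the short arm. The lowest of these long arm bins, from 93700001 to 93800000, was at 10.2% with 4.60 reads for a ratio of 1.

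**Figure D4:**
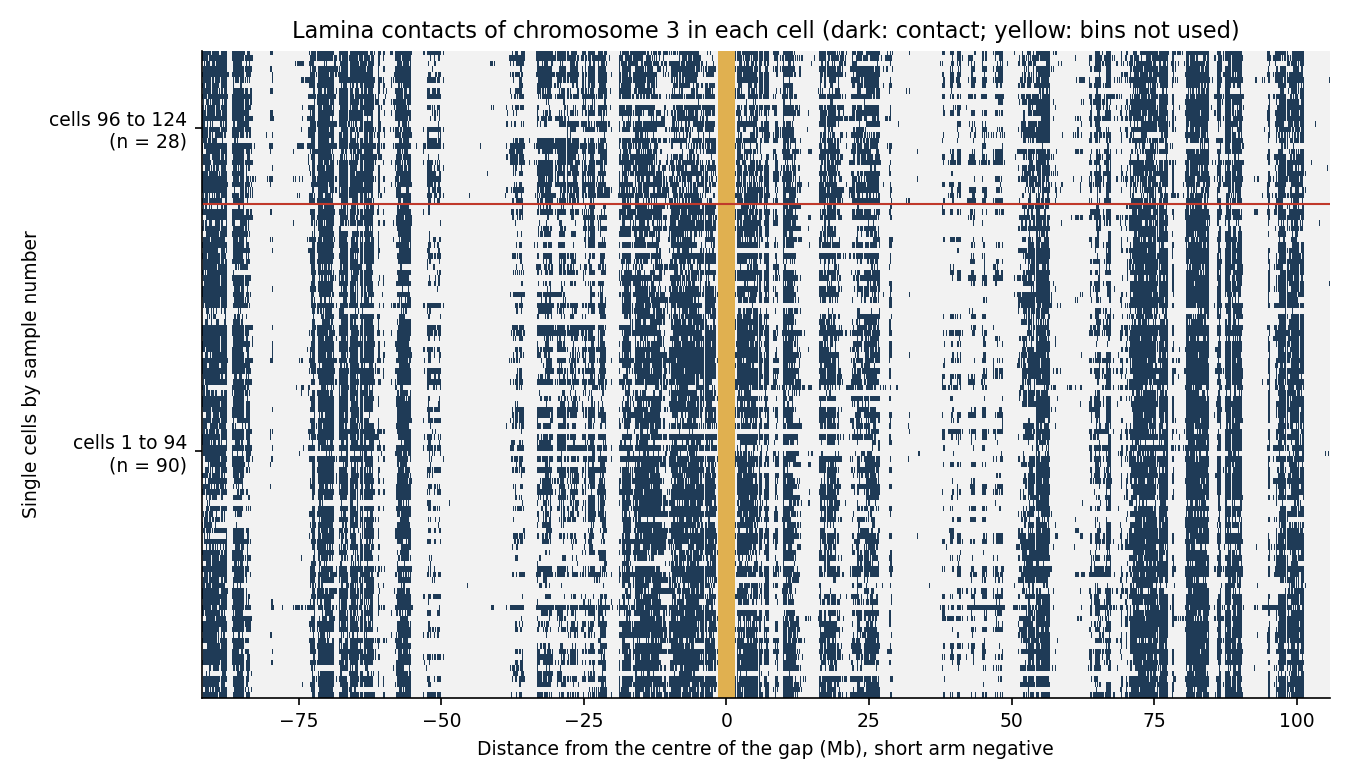
Contacts (dark) of each 100 kb bin of chromosome 3 by distance from the centre of the gap in Mb (horizontal axis, short arm negative) in each of 118 cells (rows), with cells 96 to 124 above the red line and cells 1 to 94 below it. Frequent stretches run through nearly all rows as dark columns, rare stretches stay pale, and the stretches between them are broken from row to row.

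Where the sets of cell numbers differed, they did so by region. In windows of 5 Mb, cells 96 to 124 were higher than cells 1 to 94 from 60000001 to 65000000, with 62.1% ± 26.2 against 40.4% ± 26.3, from 65000001 to 70000000, with 58.1% against 37.7%, and from 113500001 to 118500000, with 67.2% against 52.1%. They were lower from 85000001 to 90000000, the place of the adhesion gene CADM2, with 60.1% against 76.2%, from 80000001 to 85000000, with 51.4% against 66.6%, and from 163500001 to 168500000, with 76.2% against 86.8%. Single bins were at least 20 points higher in cells 96 to 124 in 11.0% of the bins of chromosome 3, against 11.4% of all bins, and at least 20 points lower in 3.08%, against 2.66%. They were higher in 7.86% of the long arm and 14.6% of the short arm. The cause was not tested.

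Contacts came in runs of consecutive bins. In all cells together chromosome 3 had 15974 runs with a mean of 0.537 Mb, and 57.3% of its contacts lay in runs of at least 1 Mb, against 54.1% for the other sequences; single bins held 6.69%, against 7.69%. On the long arm 54.8% of contacts lay in runs of at least 1 Mb and on the short arm 59.9%. The mean run of a cell was 0.555 Mb ± 0.145, with 0.221 Mb as the lowest (cell 49) and 0.898 Mb as the highest (cell 85), and it went with the number of reads (r = 0.573). The mean was 0.499 Mb in cells 96 to 124, against 0.573 Mb in cells 1 to 94. The longest run of a cell spanned 1.6 Mb at least, 4.1 Mb in the median cell and 6.7 Mb at most, and lay on the long arm in 70 cells and on the short arm in 48. It overlapped the stretch from 162800001 to 167700000 in 30 cells, that from 172600001 to 176600000 in 19 and that with ROBO1 and ROBO2 in 16. Runs of 5 Mb or more numbered 24 of the 15974, in 20 cells, against 371 of 190864 runs on the other sequences.

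Cells 77 and 85 had the longest runs, of 6.7 Mb each. In cell 85 the run went from 162800001 to 169500000, over frequent stretches and the place of MECOM, a transcription factor gene of blood stem cells. The part with MECOM, from 167900001 to 169500000, was itself often in contact, with a mean of 86.9% over all cells. In cell 77 it went from 134200001 to 140900000, a region with 19.6% ± 19.7 of its bins in contact over all cells, a median of 12.7% and no contact in 18 cells. The next highest cell there had 76.1%, and 11 cells had over 50%. The mean ratio of this region was 3.12 in cell 77, 1.96 in the next highest cell and 0.375 in the median cell. Cell 77 had 148729 reads, close to the median, and 47.0% of chromosome 3 in contact, against 37.3% ± 7.14 over all cells.

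**Figure D5:**
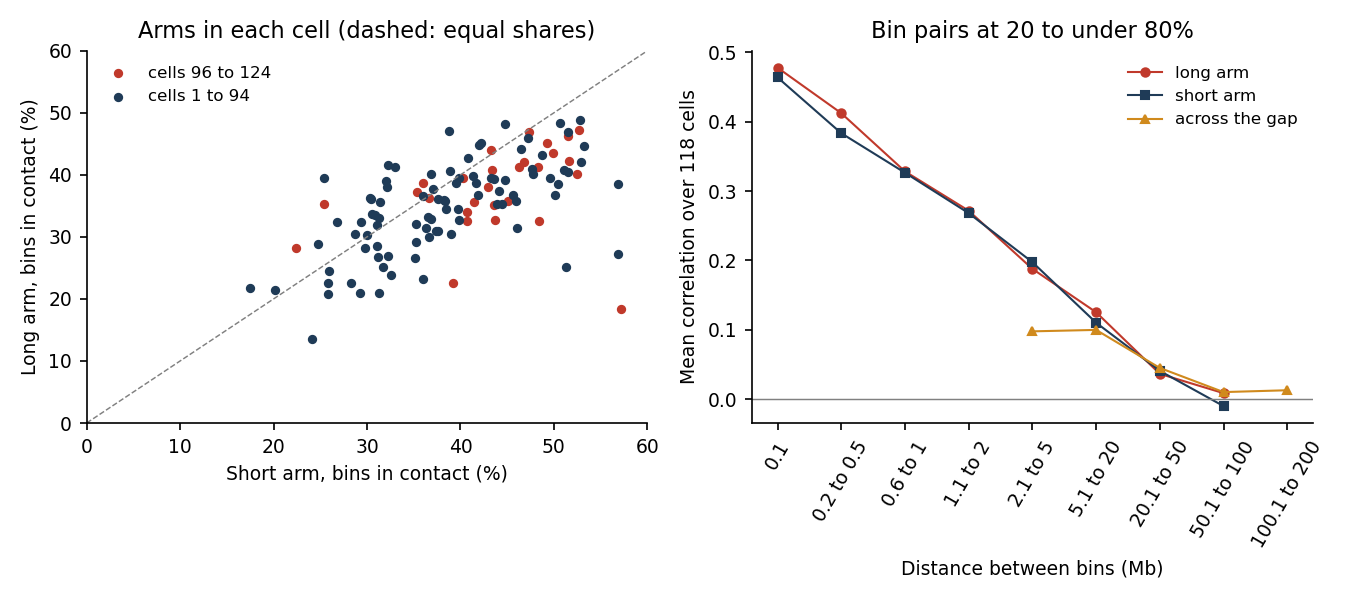
Left, percentage of bins in contact on the long arm (vertical) and the short arm (horizontal) in each cell, with cells 96 to 124 in red and cells 1 to 94 in blue. Right, mean correlation over 118 cells between bins at 20 to under 80%, by their distance in Mb: it was 0.478 on the long and 0.464 on the short arm for neighbouring bins and near 0 beyond 50 Mb.

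Close bins of an arm shared their contacts across cells more than distant bins did. For the 667 bins at 20 to under 80%, 342 on the long arm and 325 on the short arm, contacts were correlated over cells, pair by pair, after the contact share outside chromosome 3 was removed by regression; all pairs share the same 118 libraries and their depth. The mean r of neighbouring bins was 0.478 on the long arm and 0.464 on the short arm. It was 0.412 and 0.383 at 0.2 to 0.5 Mb, 0.328 and 0.326 at 0.6 to 1 Mb, 0.272 and 0.268 at 1.1 to 2 Mb, and 0.188 and 0.197 at 2.1 to 5 Mb. At 5.1 to 20 Mb it was 0.125 on the long arm, 0.110 on the short arm and 0.0999 across the gap, and at 20.1 to 50 Mb 0.0365, 0.0408 and 0.0451. At 2.1 to 5 Mb pairs across the gap, of which there were 105, had 0.0978. Because the gap spans 2.9 Mb, they fill only the farther part of this range. Their mean is therefore not at the same distances as those within the arms. Beyond 50 Mb the means lay between −0.00991 and 0.0129 for both arms and across the gap.

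The 30 stretches of at least 1 Mb at 50% or more were compared in the same way. Neighbouring stretches had a mean r of 0.457 on the long arm, above 0 in 12 of 13 pairs, and 0.426 on the short arm, above 0 in 15 of 15 pairs. The pair on either side of the gap had 0.365. Stretches that are not neighbours had 0.206 on the long arm (78 pairs), 0.116 on the short arm (105 pairs) and 0.104 across the gap (223 pairs). These groups lay at unlike mean distances, of 44.1, 39.5 and 99.3 Mb. Neighbours were 5.17 Mb apart on the long arm and 3.81 Mb on the short arm. The groups were not compared at equal distance. The highest pair was 108400001 to 109500000 with 109600001 to 111200000, 0.1 Mb apart, at 0.759. A pair 12.1 Mb apart on the long arm, 93800001 to 97500000 with 109600001 to 111200000, had 0.676, with 0.684 over cells 96 to 124 and 0.692 over cells 1 to 94. The lowest, 73600001 to 75300000 on the short arm with 179500001 to 180600000 on the long arm, had −0.239.

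The shares of the long and the short arm had r = 0.284 over cells after the share of the other sequences was removed, and 0.580 without this removal. Over the 17 sequences split into arms the same measure was 0.375 ± 0.131 (SD over sequences), from 0.116 to 0.593, so chromosome 3 lay within their spread. The value rested in part on cell 113: without that cell it was 0.374. It was 0.0505 in cells 96 to 124, but 0.435 without cell 113, and 0.366 in cells 1 to 94. Cell 113 had 18.4% of the long arm in contact and 57.2% of the short arm, the lowest difference of all, at −38.8 points, before the next at −29.6. Its 4 frequent stretches of the short arm were in contact over their whole length, while the 5 of the long arm had 7.14 to 60% in contact. The long arm held 2.12% of its reads, against a median of 4.27% over cells, and the short arm 7.37%, the highest of all cells, against a median of 4.13%. Its 142450 reads and its share of 35.6% on the other sequences were near the medians over cells. The cause was not tested.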

How the data were processed

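Single-cell DamID of LaminB1 was measured in KBM7 cells. The authors deposited 1 table of the ratio of observed to expected reads per 100 kb bin and cell; the unit follows from the table's name and its values, and how the expected part was made is not described in the labels. Per the submitters' processing notes, cutadapt, Bowtie2 2.1.0 and build hg19 were used, with roles and settings not given in the sources used here. Deposited ratios span 30376 bins and 118 of the 124 cells; samples 33, 34, 44, 86, 95 and 120 were not analysed here.

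From these ratios, contacts (a value of 1 or more), bin frequencies, stretches, runs and correlations over cells were computed with Python 3.11.15, numpy 2.4.6, pandas 2.3.3 and scipy 1.17.1, and figures with matplotlib 3.10.9. Whole reads were recovered from the steps of each bin and cell. The step of a bin was chosen so that all its values came out whole to a tolerance of 0.02 reads. That 100% of 1697706 values above 0 did so is therefore set by the method and is no check of it. No molecular identifiers are described in the labels, so intervals and limits cover counting error only. The code was tested on simulated data. The labels form 1 group and name no cultures, so no test was made. Named stretches are the 3 longest frequent, intermediate (40 to under 60%) and rare stretches of each arm; others, and single bins and cells, were chosen after their values were seen. The members, limits and stretches were chosen with earlier results of these data known. No annotation of hg19 was used, so no gene was given a value; the genes named are landmarks placed from general knowledge, chosen after values were seen. The alternatives tried were other contact values, read minimums, thinning, bin sizes, limits, distances and sets of cells.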

Additional observations from a re-analysis of the deposited data

How the results depend on the processing

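Of 347 values of 35 results under 17 alternatives, 305 moved by less than the spread between cells (SD; for shares and counts 1.5 times, for the correlation of the arms the SD over sequences), 42 moved more and 0 reversed. A reversal was defined only for the long minus the short arm, chromosome 3 minus the other sequences and the correlation of the arms. The SD between cells is a wide measure for a mean. The short arm side of the gap counted as unmoved at 41.6% in cells 96 to 124, against 56.9% in all cells. The alternatives without cell 113, in cells 96 to 124 without it and with bins of at least 3 reads (1926 bins) were chosen after seeing the data. With a contact value of at least 0.5, the share of chromosome 3 was 46.4%, of the long arm 44.4% and of the short arm 48.7%, bins at 80% or more were 32.3% and at 0% 3.85%, the long arm end had 3.22%, the mean run was 0.724 Mb, and 23 frequent and 11 rare stretches reached 1 Mb. With at least 2, these shares were 21.8%, 20.9% and 22.8%, bins at 80% or more 0.205% and at 0% 31.2%, the short arm end had 53.6%, the gap had 39.2% on the long arm side and 31.3% on the short arm side, runs of at least 1 Mb held 21.7% of contacts, the mean run was 0.290 Mb and 0 frequent stretches were left. With 109 cells thinned to 50000 reads, 9 being left out as shallower, bins at 80% or more were 13.2% and at 0% 11.9%, the mean run was 0.404 Mb and 2 frequent stretches were left. A limit of 90% left 4.16% of bins and 0 stretches of 1 Mb. Within 5 Mb the long arm end had 7.15%. The mean run was 1.03 Mb with gaps of 1 bin bridged and 1.15 Mb in 200 kb bins, which gave 24 frequent stretches. The correlation of the arms was 0.0505 in cells 96 to 124, 0.435 there without cell 113, and 0.580 with no removal. The 9 named stretches that moved were the 6 frequent ones at a contact value of 2, with 59.6 to 65.6%, and 3 rare ones at 0.5, with 1.19 to 3.11%. No groups could be compared because the labels form 1 group, and no test was made. Differences within cells, such as that between the arms, are given as descriptions. The long arm minus the short arm was −1.91 points at a contact value of at least 2. Low reads limit the calls of single bins: in the median cell a value of 1 stood for under 3 reads in 23 bins.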
